A study of Mus musculus with 24 samples.

Results

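The 24 tumour samples of the series differed widely in the level of S100a8, a transcript of neutrophils and inflammatory monocytes, and that spread crossed the treatment arms. All 24 samples were ranked by S100a8, and the 6 highest, called S100a8-high here, were compared with the 12 lowest, called S100a8-low, so that 18 of 24 samples entered the comparison and 6 middle-ranked samples did not. Over the other 600 genes kept, S100a8-high tumours had more transcript for neutrophil surface receptors (Cxcr2, Csf3r, Fpr2, Il1r2, Trem1), for interleukin 1β and for Selplg, a selectin ligand of leukocytes. Of these genes, only Cxcr2 and Fpr2 also went with S100a8 among samples of the same arm (limma, adjusted p under 0.05). In 3 of the 6 S100a8-high tumours, not including the sample with the highest S100a8, T cell transcript also stood above its level in every S100a8-low tumour. It did so in some middle-ranked tumours too, and so was not particular to the S100a8-high group. The median log2 difference was −0.07 over tumour epithelial genes and 0.14 over ligands that make or attract neutrophils, beside 0.12 over all genes. All 6 S100a8-high samples had run on the same cartridge, so the comparison cannot be told apart from the cartridge unless it is made within that cartridge or within an arm, and both are given below. Within that cartridge it still cannot be told apart from the treatment arm.

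Every mouse was a female neu-N animal of an FVB background, 7 to 8 weeks old, with NT2.5 mammary tumour cells placed in the mammary fat pad. Treatment began on day 3 and went on for 3 weeks. Entinostat (ENT), which blocks class I histone deacetylases, was given daily by mouth at 5 mg/kg in 0.5% methylcellulose. Antibodies were injected at 100 µg per mouse against PD-1 (written PD1), CTLA-4 (CTLA4) or HER2, and vehicle mice received isotype antibodies with methylcellulose. The arms were ENT+CTLA4+HER2 (2 samples), ENT+PD1+CTLA4, ENT+CTLA4, ENT+PD1, ENT and vehicle (4 samples each), and 2 samples with the same titles as ENT+PD1 replicates 1 and 2, called the repeat-titled pair and kept as an arm of their own. The labels do not say whether that pair came from other animals or are reruns of the same tumours. Samples were grouped by title alone, although the protocol says that the neu-N studies had versions with anti-HER2 and versions lacking it. All tumours come from the NT2.5 cell line, and the labels do not say that each sample is a separate animal, so p-values measure the spread between these samples, which may be partly technical. The labels give whole tumour as the source, while the protocol ends with immune cells taken from a digest, and the material behind the RNA was not settled.

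S100A8 forms a heterodimer with S100A9, called calprotectin, which makes up a large share of the cytosolic protein of neutrophils and is also made by monocytes. Released outside the cell it acts as an alarm signal through TLR4 and the receptor RAGE. Neutrophils leave the bone marrow under the growth factor G-CSF, follow chemokines through the receptor CXCR2, and store antimicrobial proteins in granules whose genes are read mainly in immature cells. In a bulk sample, more cells of a type and more RNA in each cell cannot be told apart.

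Transcripts were counted with the nCounter PanCancer Immune panel, which counts single RNA molecules with barcoded probes, and the values below are the authors' normalized counts. The recovered total per sample ran from 226863 to 483418 counts, and the top-ranked sample for S100a8 had the lowest total and the largest scaling factor (1.70, against 0.774 to 1.43 in the other samples). Of the 2 cartridges of 12 samples, the second held the 4 arms with anti-CTLA-4 or repeated titles, and the first the other 3 arms. Scaled negative control probes averaged 5.32 ± 1.11 on the second cartridge and 9.02 ± 1.99 on the first (SD, n = 12 each), so genes near that level can appear lower in S100a8-high samples. Epcam, an epithelial surface protein, was measured at 3778 to 6927 in the 24 samples, and Ptprc, which encodes the pan-leukocyte protein CD45, at 98.3 to 556.

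S100a8 spanned 328 to 11838 normalized counts. Among S100a8-high samples it was 11838 in ENT+CTLA4+HER2 replicate 1, 2776 in ENT+PD1+CTLA4 replicate 1, 1607 in ENT+CTLA4+HER2 replicate 2, 1555 in ENT+CTLA4 replicate 6, 1032 in repeat-titled replicate 2 and 989 in ENT+CTLA4 replicate 1. S100a8-low samples ran from 328 to 578 with a median of 456. The top sample stood 4.26-fold above the next, while the boundaries of the groups were not gaps: the sample just outside the S100a8-high group, ENT+CTLA4 replicate 2, had 961, and the sample just outside the S100a8-low group, vehicle replicate 2, had 586 against 578 in the first S100a8-low one. These values chose the samples and carry no test.

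By arm, the S100a8-high group held 2 of 2 ENT+CTLA4+HER2 samples, 1 of 4 ENT+PD1+CTLA4, 2 of 4 ENT+CTLA4 and 1 of the 2 repeat-titled samples, all on the second cartridge. The S100a8-low group held 3 samples of the second cartridge (ENT+PD1+CTLA4 replicates 2 and 5, repeat-titled replicate 1) and 9 of the first (4 ENT, 3 vehicle and ENT+PD1 replicates 1 and 2). If the repeat-titled pair are reruns, the tumour of replicate 2 is in both groups, at 523 in ENT+PD1 and 1032 in the pair. The tumour of replicate 1 would then be counted 2 times in the S100a8-low group, at 565 and 412. The 6 middle-ranked samples were ENT+CTLA4 replicates 2 and 5 and ENT+PD1+CTLA4 replicate 6 on the second cartridge, with ENT+PD1 replicates 5 and 6 and vehicle replicate 2 on the first. Samples of one arm therefore fell far apart: ENT+PD1+CTLA4 contained both the second-highest and the lowest S100a8 of the series, and averaged 1078 ± 1140 (SD, n = 4). Vehicle was narrow by comparison, at 524 ± 75.3 (SD, n = 4).

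**Figure D1:**
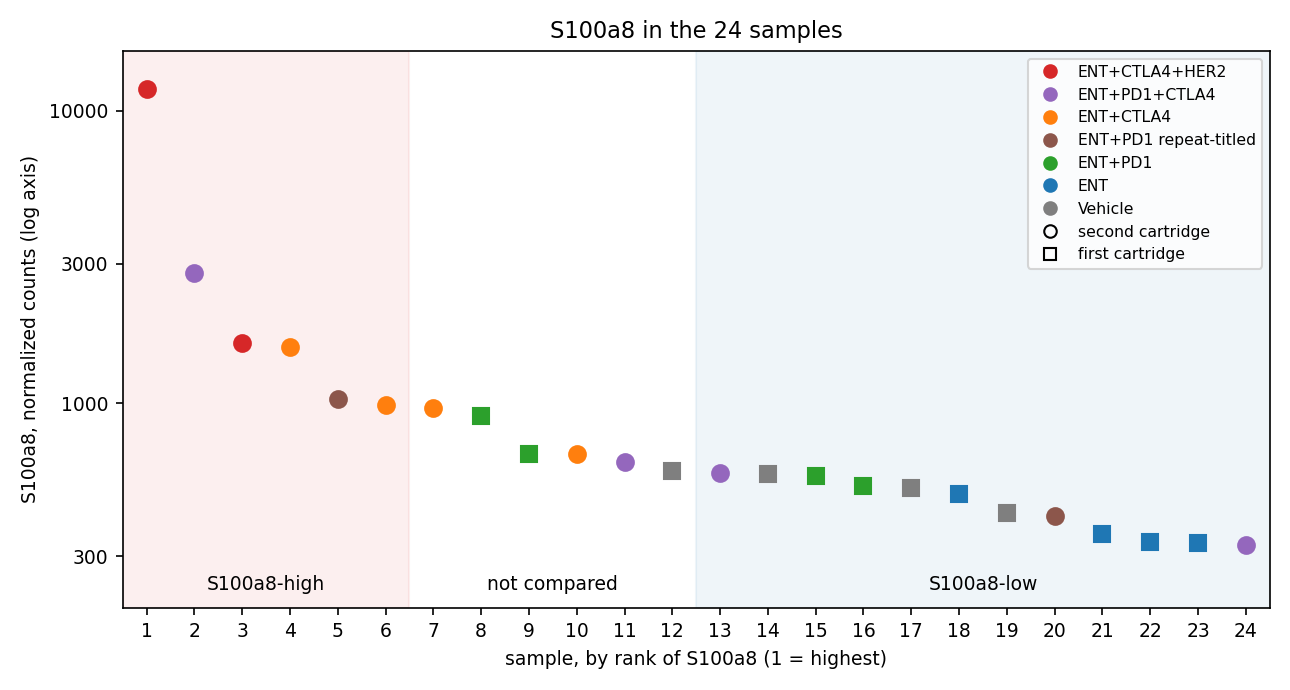
S100a8 in each sample, in normalized counts on a log axis, against its rank; colours give the arm, circles the second and squares the first cartridge, and shading the S100a8-high and S100a8-low groups. The 6 S100a8-high samples, from 989 to 11838, are all circles, and 9 of the 12 S100a8-low samples, from 328 to 578, are squares.

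Differences between the groups are means of log2(value + 1), S100a8-high minus S100a8-low, a scale that understates the change of weak genes. Because S100a8 itself sorted the samples, they are described and not tested. Of 600 genes, 387 (64.5%) were higher on average in S100a8-high tumours and 213 lower, with a median difference of 0.12. In 16 genes (2.67%) every S100a8-high sample lay above every S100a8-low sample, and in 0 genes (0%) below. The counts of each gene list below are to be read beside these shares of 64.5% and 2.67%. Among the 10 largest of the 16 were Ccl5, Ltb, Cyfip2, Cxcr2, Selplg, Ptprc, Pik3cd, Ifitm1 and Il1r2, with differences of 0.92 to 2.46, and the 6 smaller ones were Syk, Il10ra, Ccrl2, Mefv, Trem1 and Il1b. The 2.46 is that of Ccl5, which was near the negative controls in S100a8-low samples. The deposited scaling sets the housekeeping genes equal. With the same samples, the median of all genes was −0.15 after rescaling to equal medians and −0.11 after quantile normalization, so small differences have no settled sign.

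Neutrophil genes gave the most uniform picture. Of the 32 on the list used here, 22 were on the table and 19 passed the filter on low values, and all 19 of those were higher on average in S100a8-high tumours, with a median of 0.84 beside 0.12 over all genes (0.57 after median rescaling and 0.66 after quantile normalization). In 4 of them, Cxcr2, Il1r2 and Trem1 included, the groups did not overlap, beside 16 of all 600 genes (2.67%). The list's mean log2 level relative to the S100a8-low samples was 0.54 to 1.74 in S100a8-high samples and −0.25 to 0.31 in S100a8-low samples. The middle-ranked samples were not all in between: ENT+PD1 replicates 5 and 6 reached 1.04 and 1.18, replicate 5 above 4 and replicate 6 above 5 of the 6 S100a8-high samples.

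Cxcr2, the receptor for the chemokines that draw neutrophils into tissue, was lowest at 97.9, median 117 and highest at 304 in S100a8-high samples, and lowest at 35.0, median 52.8 and highest at 83.8 in S100a8-low samples. Every S100a8-high value exceeded every S100a8-low one, a difference of 1.35. It was 1.12 without ENT+CTLA4+HER2 replicate 1 and 1.17 within the second cartridge.

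Csf3r, which encodes the G-CSF receptor, ran from 62.1 through a median of 116 to 241 in S100a8-high samples and from 31.1 through 51.4 to 76.4 in S100a8-low samples. A single S100a8-high sample, ENT+CTLA4 replicate 6 at 62.1, fell inside the S100a8-low range, and the difference was 1.19. Fpr2, a receptor for formylated bacterial and mitochondrial peptides, ran from 38.6 through 45.2 to 184 in S100a8-high samples and from 14.1 through 25.9 to 42.0 in S100a8-low samples. Of the 6 S100a8-high samples 5 lay above every S100a8-low one, with a difference of 1.24.

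Trem1, an activating receptor of neutrophils and monocytes, ran from 123 through 145 to 251 in S100a8-high samples and from 68.9 through 84.3 to 108 in S100a8-low samples, without overlap. Il1r2, the decoy receptor for interleukin 1 that neutrophils carry, ran from 181 through 214 to 510 in S100a8-high samples and from 91.3 through 135 to 174 in S100a8-low samples, also without overlap. Members shared with other myeloid cells were higher too: the NADPH oxidase genes Cybb and Ncf4 differed by 0.84 and 0.85, the integrin chains Itgb2 and Itgam by 0.93 and 0.70, and Mmp9 by 0.75, each with some overlap.

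Granule genes differed among themselves. Camp, the gene of the granule peptide cathelicidin, had the largest difference of all 600 genes (2.76), but it came from a few samples: 600 in ENT+CTLA4+HER2 replicate 1, 110 in ENT+PD1+CTLA4 replicate 1, 32.3 in ENT+CTLA4+HER2 replicate 2 and 22.5 in ENT+CTLA4 replicate 6. The remaining S100a8-high samples had 9.23 and 4.98, and S100a8-low samples 1.02 to 10.3. It was above the negative controls (their mean plus 2 SD in that sample) in 5 of 6 S100a8-high and 0 of 12 S100a8-low samples, so the size of its difference is not measured. It passed the filter on low values through S100a8-high samples alone.

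Mpo and Elane, which encode the primary granule enzymes myeloperoxidase and neutrophil elastase, failed the filter on low values. In ENT+CTLA4+HER2 replicate 1 they read 105 and 83.3, while in the other 23 samples Mpo did not pass 14.5 and Elane did not pass 14.2. Ltf, the gene of the secondary granule protein lactoferrin, ran from 13.2 to 34.0 in S100a8-high and from 6.19 to 37.4 in S100a8-low samples, a full overlap. Lcn2, a granule protein that tumour epithelium also makes, ran from 32885 to 78151 in S100a8-high and from 28959 to 47153 in S100a8-low samples, and its highest value was in ENT+CTLA4+HER2 replicate 2, not replicate 1.

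The interleukin 1 list was higher in 13 of 14 kept genes, with a median of 0.34 that was 0.058 after median rescaling and 0.065 after quantile normalization. Il1b, the gene of interleukin 1β, an inflammatory cytokine made by neutrophils and macrophages, ran from 2829 through 3126 to 4783 in S100a8-high samples and from 1347 through 2020 to 2528 in S100a8-low samples. The groups did not overlap, and the difference was 0.75. Nlrp3, the sensor of the inflammasome that matures interleukin 1β, differed by 0.70, and Ptgs2, the inducible cyclooxygenase, by 0.49. The receptor side of S100A8 was higher in 10 of 11 kept genes with a median of 0.22, which became −0.056 after median rescaling and −0.065 after quantile normalization: Cd14 differed by 0.56 and Tlr4 by 0.31, and no member separated the groups.

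**Figure D2:**
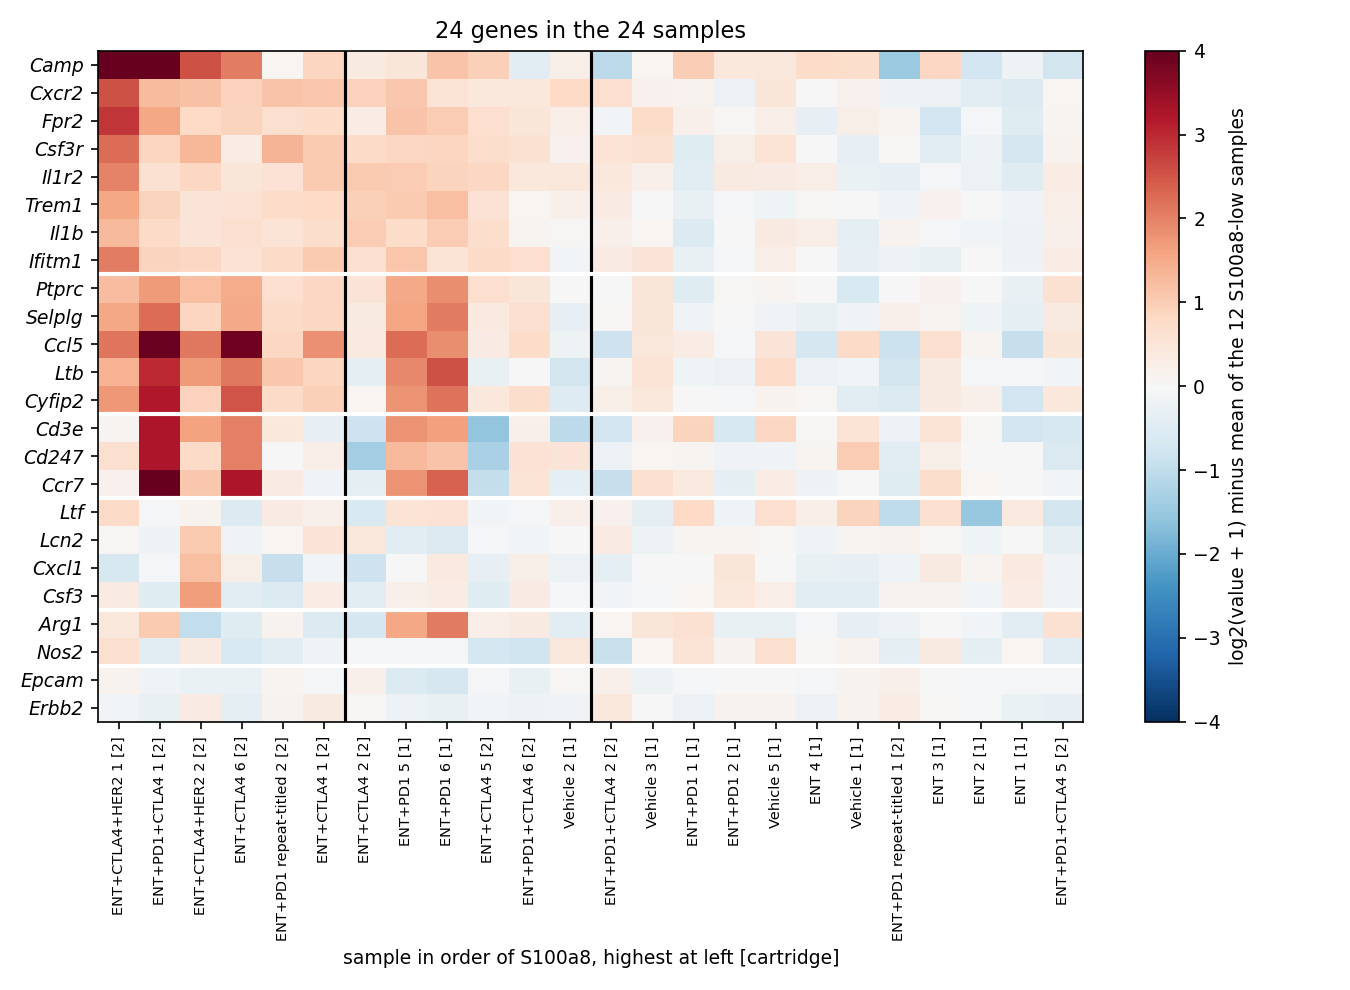
Level of 24 genes (rows) in the 24 samples (columns, in order of S100a8 from the left, cartridge number in brackets), as log2(value + 1) minus the mean of the 12 S100a8-low samples; colours stop at 4 log2 units either way, and black lines mark off the S100a8-high samples at left and the S100a8-low samples at right. Cxcr2, Il1r2, Trem1, Il1b and Ifitm1 are red in all 6 S100a8-high columns, Cd3e, Cd247 and Ccr7 strongly in only some of them, and Epcam and Erbb2 stay near white.

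T cell genes were the group with the largest median, 1.17 over 15 kept genes of 24, with 14 higher and only Cd28 lower (−0.04), and 0.91 after median rescaling, but the S100a8-high samples did not share it. Without ENT+PD1+CTLA4 replicate 1 the T cell median was 0.77, below the 0.82 of the neutrophil list in the same samples. The list's mean log2 level relative to S100a8-low samples was 2.87 in ENT+PD1+CTLA4 replicate 1, 1.93 in ENT+CTLA4 replicate 6 and 1.27 in ENT+CTLA4+HER2 replicate 2. It was 0.50 in ENT+CTLA4+HER2 replicate 1, 0.14 in repeat-titled replicate 2 and 0.12 in ENT+CTLA4 replicate 1, inside the S100a8-low range of −0.57 to 0.54. The middle-ranked ENT+PD1 replicates 5 and 6 reached 1.64 and 1.91, both above ENT+CTLA4+HER2 replicate 2. In 0 of the 15 genes were the groups free of overlap. The 9 members too weak to pass the filter included Cd8a, which encodes a chain of the cytotoxic T cell co-receptor and was above the negative controls in 2 of 24 samples.

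Cd3e, which encodes a signalling chain of the T cell receptor complex, shows the pattern. It was 155 in ENT+PD1+CTLA4 replicate 1, 66.8 in ENT+CTLA4 replicate 6 and 50.3 in ENT+CTLA4+HER2 replicate 2, but 12.3 to 21.2 in the other 3 S100a8-high samples, beside 8.74 to 29.9 in S100a8-low samples. Ccr7, the receptor that guides naive lymphocytes and mature dendritic cells to lymphoid tissue, was 675 in ENT+PD1+CTLA4 replicate 1 and 33.9 to 366 in the other S100a8-high samples, and 19.4 to 62.5 in S100a8-low samples.

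Genes read in lymphocytes, or in lymphocytes and myeloid cells alike, were among the larger differences without overlap. Ccl5, a chemokine of T cells, NK cells and macrophages, ran from 18.7 through 47.0 to 170 in S100a8-high samples and from 4.86 through 11.7 to 18.0 in S100a8-low samples, a difference of 2.46. It was highest in ENT+PD1+CTLA4 replicate 1 and ENT+CTLA4 replicate 6, the samples with the most T cell transcript. Ltb, the gene of lymphotoxin β, differed by 1.69, and Selplg, the gene of the selectin ligand PSGL-1, by 1.29.

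**Figure D3:**
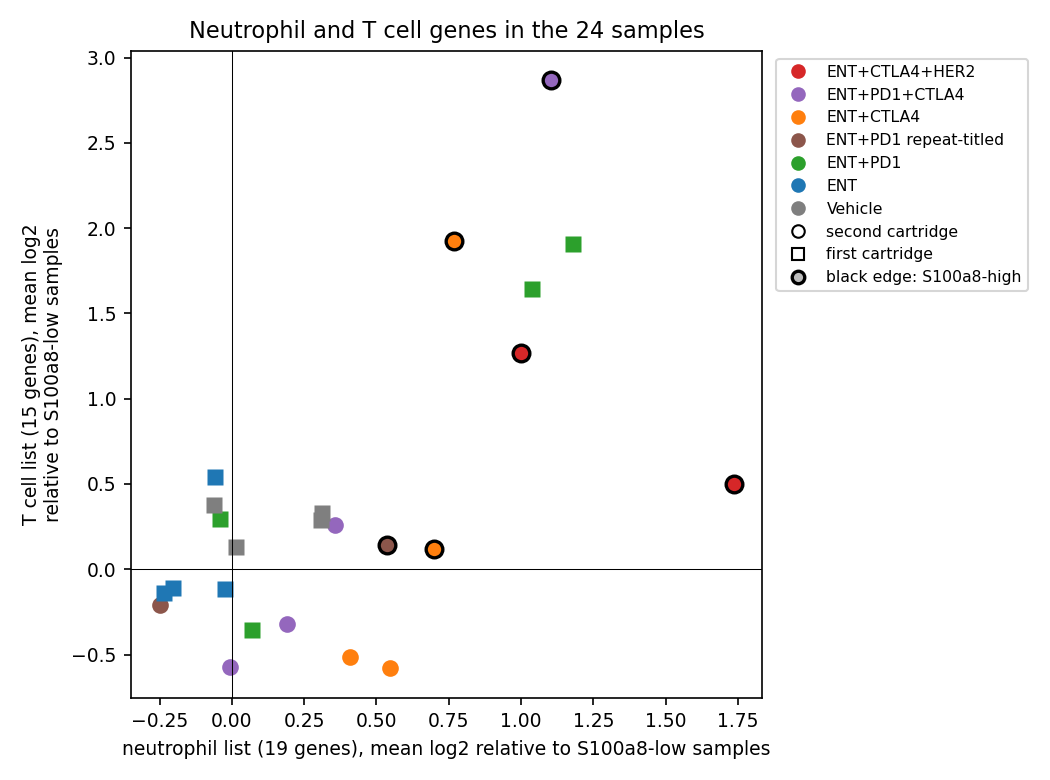
Mean log2 level of the neutrophil list (horizontal, 19 genes) and the T cell list (vertical, 15 genes) in each sample, relative to the S100a8-low samples; colours give the arm, circles the second and squares the first cartridge, and a black edge the S100a8-high samples. The 6 S100a8-high samples lie between 0.54 and 1.74 on the neutrophil axis and spread from 0.12 to 2.87 on the T cell axis, and the sample furthest right has a T cell level of 0.50.

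Other immune lists were higher with more overlap. MHC class II genes, which present antigen to CD4 T cells, were higher in 7 of 8 with a median of 0.88, led by H2-DMb2 (1.13) and H2-Ea-ps (1.02). Macrophage and monocyte genes were higher in 17 of 20 with a median of 0.39, dendritic cell genes in 8 of 10 with 0.55, and B cell genes in 4 of 4 with 0.58 (8 of the 12 on that list were too weak). Under median rescaling these medians were 0.60, 0.12, 0.28 and 0.31, and that of the B cell genes was 0.37 without ENT+PD1+CTLA4 replicate 1.

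Suppressive myeloid genes divided. Cd274, which encodes the checkpoint ligand PD-L1, was 55.1 to 133 in S100a8-high and 21.3 to 80.6 in S100a8-low samples (difference 1.04), and Arg2, a mitochondrial arginase, was 39.6 to 105 in S100a8-high and 16.2 to 60.9 in S100a8-low samples (0.89). Arg1, the cytosolic arginase of myeloid cells, was 103 to 421 in S100a8-high and 149 to 311 in S100a8-low samples (−0.06), and Nos2, the inducible nitric oxide synthase, had medians of 23.4 in S100a8-high and 30.2 in S100a8-low samples (−0.10). The list of 17 was higher in 12, near the share of all genes (64.5%), with a median of 0.10, which became −0.18 under median rescaling.

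Ligands that make or attract neutrophils were not higher as a group. Of 9 kept genes of the G-CSF and CXCR2 ligand list, 5 were higher and 4 lower, beside 64.5% of all genes higher, with a median of 0.14. Median rescaling turned it to −0.14 and quantile normalization to −0.12. Csf3, the G-CSF gene, was 75.9 to 352 in S100a8-high and 80.1 to 149 in S100a8-low samples. Cxcl1, a CXCR2 ligand, was 1118 to 4879 in S100a8-high and 1644 to 2990 in S100a8-low samples. The ligands of CXCR2 divided: Cxcl2 differed by 0.69, Cxcl3 by 0.58, Cxcl15 by 0.53, Ppbp by 0.16, Cxcl1 by −0.05 and Cxcl5 by −0.33, and in none were the groups free of overlap. Cxcl3 ran from 8.21 through 20.3 to 44.8 in S100a8-high and from 8.98 through 13.1 to 23.5 in S100a8-low samples, and was above the negative controls in 5 of 6 S100a8-high and 5 of 12 S100a8-low samples. For Csf3 and Cxcl1 the maximum was in ENT+CTLA4+HER2 replicate 2, and the sample with the highest S100a8 had 141 of Csf3 and 1364 of Cxcl1.

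Epithelial and tumour genes were lower in 7 of 10, with a median of −0.07. Erbb2, the mouse HER2 gene, was 364 to 597 in S100a8-high and 369 to 622 in S100a8-low samples, and Epcam was 5004 to 6623 in S100a8-high and 5192 to 6927 in S100a8-low samples. NK cell genes (5 of 9 higher, median 0.08), endothelial and stromal genes (10 of 18, 0.02), type I interferon genes (13 of 22, 0.09), complement genes (15 of 20, 0.19), MHC class I genes (10 of 13, 0.24) and cell cycle genes (7 of 9, 0.07) had small medians that were below 0 under both rescalings. In the interferon list only Ifitm1 separated the groups, at 211 to 578 in S100a8-high and 111 to 202 in S100a8-low samples. Mast cell genes were higher in 2 of 4 and eosinophil genes in 1 of 3.

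No gene was lower without overlap. The largest negative differences were in Cd1d2 (−0.77), the endothelial selectin Sele (−0.71), the cytokine Il6 (−0.68), Dmbt1 (−0.63) and the protease gene Ctsw (−0.62). Il6 had a median of 121 and a maximum of 481 in S100a8-high samples, and a median of 226 and a maximum of 426 in S100a8-low samples, with wide overlap. Cd1d2 was above the negative controls in 2 of 6 S100a8-high and 8 of 12 S100a8-low samples and Dmbt1 in 1 of 6 and 7 of 12, and for these the part of the cartridge background was not tested. Within the second cartridge the differences of Sele and Il6 had the opposite sign.

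Within the second cartridge alone, 6 S100a8-high samples could be set against 3 S100a8-low samples. ENT+CTLA4 and ENT+CTLA4+HER2 held no S100a8-low sample, and only ENT+PD1+CTLA4 and the repeat-titled pair held samples of both groups. The difference there cannot be told apart from the arm. On that cartridge 50 genes (8.33%) were higher without overlap and 1 (0.167%), the proteasome gene Psmd7, was lower. The 16 genes of the full comparison are among the 50 by construction, as the same S100a8-high samples face a part of the S100a8-low ones. The median of the neutrophil list was 0.79 and that of the T cell list 1.65, beside 0.34 over all genes. The first cartridge held no S100a8-high sample, so the comparison does not exist there. When each value was taken relative to the mean of its arm, the neutrophil median was 0.34 and the T cell median 1.11, with 0.16 over all genes and no gene free of overlap. On that scale the difference was 0.67 for Selplg, 0.47 for Cxcr2 and 0.45 for Fpr2. It was 0.32 for Csf3r and Trem1, 0.23 for Il1r2 and 0.21 for Il1b. Relative to the arm mean, the 2 ENT+CTLA4+HER2 samples, both S100a8-high, cancel out in the S100a8-high mean. The 4 ENT samples, all S100a8-low, do so in the S100a8-low mean. Both arms pull those means toward 0, so a smaller difference is partly built in.

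Whether genes go with S100a8 among samples of the same arm was tested over all 24 samples, with a slope on log2(S100a8 + 1) and the arm as a factor in limma. This uses no split, and differences between arms or cartridges do not enter. A slope of 1 means a doubling of the gene for each doubling of S100a8. Of 600 genes, 9 (1.5%) had a positive slope at an adjusted p under 0.05 and 0 (0%) a negative one, while 104 (17.3%) passed an unadjusted 0.05. Slopes were positive in 441 genes (73.5%), with a median of 0.08. On the recovered counts, edgeR called 29 genes (4.83%), all positive, and DESeq2 34 positive (5.67%) and 7 negative (1.17%). Those called by edgeR included all 9, and those called by DESeq2 8 of the 9, all but Klra17.

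Of the 9 genes, 4 were on the neutrophil list, which had a median slope of 0.29 (0.18 after either rescaling). In limma, Camp rose with S100a8 by 1.49 ± 0.19 (SE, adjusted p = 1.56e-04), Fpr2 by 0.58 ± 0.09 (adjusted p = 0.00186) and Cxcr2 by 0.50 ± 0.08 (adjusted p = 0.00186). Camp had entered the tested genes through S100a8-high samples alone, so its call is not independent of the ranking and is no separate support. The 5 outside that list were Ccl21a (0.85 ± 0.15, adjusted p = 0.00246), a chemokine of lymphatic vessels whose near-identical copies the probe may not tell apart, Cyfip2 (0.84 ± 0.19, adjusted p = 0.0325), an actin regulator, Chil3 (0.73 ± 0.18, adjusted p = 0.0408), a chitinase-like protein of myeloid cells, Klra17 (0.38 ± 0.09, adjusted p = 0.0408), a receptor of the Ly49 family, and the kinase gene Map4k2 (0.30 ± 0.05, adjusted p = 0.00246). With values floored at 20, limma gave Camp a slope of 0.91 (adjusted p = 0.000626) and Klra17 one of 0.16 (adjusted p = 0.0661). Klra17 lost its call in 24 of 39 other settings and Chil3 in 18 of 39. Csf3r (0.33 ± 0.11, adjusted p = 0.155), Trem1 (0.34 ± 0.10, adjusted p = 0.0896) and Il1b (0.27 ± 0.09, adjusted p = 0.153) did not pass, nor did Il1r2 and Selplg. Of the negative slopes none passed, and the 5 with the smallest p were those of Itga6, Dmbt1, Csf3, Ecsit and Lif, from −0.67 to −0.17.

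**Figure D4:**
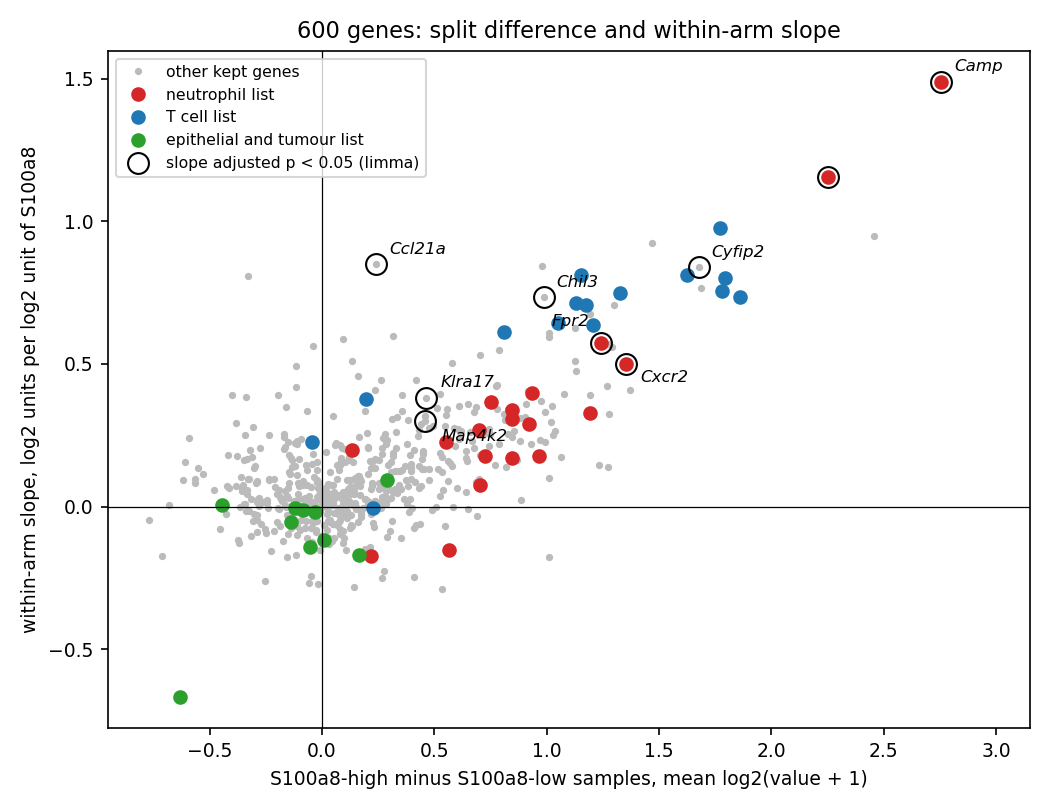
For each of 600 genes, the difference in mean log2(value + 1) between S100a8-high and S100a8-low samples (horizontal) and the slope on log2 S100a8 within arms (vertical, log2 units per log2 unit). Open black rings mark the 9 genes with an adjusted p under 0.05 in limma, from Camp at 2.76 and 1.49 to Map4k2 at 0.46 and 0.30, and the neutrophil (red) and T cell (blue) lists lie up and right of the epithelial list (green).

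The slopes rest on a few samples. Without ENT+PD1+CTLA4 replicate 1, 3 of the 9 genes were still called by limma (Fpr2, Cxcr2 and, with the limit given above, Camp). Leaving out ENT+CTLA4+HER2, the arm with the highest S100a8, raised the count to 47 (7.83%), all positive, with 8 of the 9 among them and Chil3 lost (adjusted p = 0.113). In that fit, chosen after seeing the data, 13 of 15 T cell genes passed in limma, against 0 of 15 with all samples, and the list's median slope was 1.28 in place of 0.72. With all samples that slope was 0.38 after median rescaling and 0.49 after quantile normalization. Cd3e had a limma slope of 1.39 ± 0.28 (SE, adjusted p = 0.00552) without the arm and 0.71 ± 0.31 (adjusted p = 0.233) with it. In the arm left out, S100a8 was 11838 in replicate 1 and 1607 in replicate 2, while Cd3e was 17.0 in replicate 1 and 50.3 in replicate 2. The neutrophil median hardly depended on that arm, at 0.33 without it and 0.29 with it. The difference between the 2 fits was not tested.

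**Figure D5:**
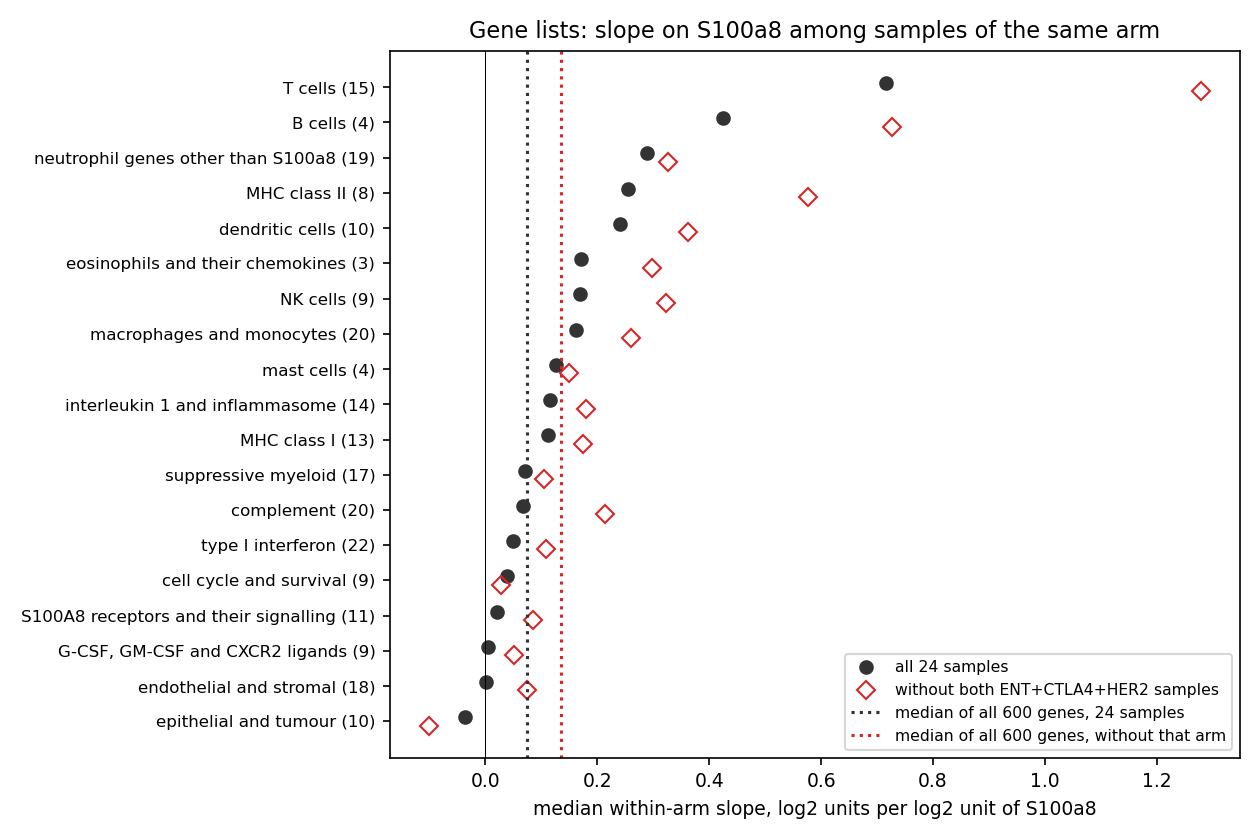
Median within-arm slope on log2 S100a8 of each gene list (number of kept genes in brackets), over all 24 samples (filled circles) and without both ENT+CTLA4+HER2 samples (open diamonds); dotted lines give the median of all 600 genes in each fit. The T cell list is at 1.28 without that arm and 0.72 over all samples, and the neutrophil list at 0.33 and 0.29.

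The slope did not differ detectably between the cartridges: the interaction gave 0 genes (0%) at an adjusted p under 0.05 in limma and 57 (9.5%) at an unadjusted 0.05. S100a8 spanned only 333 to 903 on the first cartridge, against 328 to 11838 on the second. Slopes on the first are therefore imprecise, and the test could miss a difference. Fitted separately, the first cartridge called 0 genes (0%) and the second 1 gene (0.167%), Camp, which had passed the filter through S100a8-high samples alone. The neutrophil list had a median slope of 1.14 on the first cartridge and 0.22 on the second, beside 0.36 and 0.057 over all genes. Cxcr2 had a slope of 1.20 ± 0.30 (SE, adjusted p = 0.314, limma) on the first cartridge and 0.46 ± 0.08 (adjusted p = 0.0719) on the second. Camp had a slope of 0.25 ± 0.69 on the first cartridge (adjusted p = 0.851, limma) and 1.57 ± 0.20 on the second (adjusted p = 0.0115), and on the first it was at the level of the negative controls.

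Over all 24 samples, and as a description only since arms and cartridges are shared, the genes whose log2 levels had the highest Pearson r with S100a8 were Cxcr2 (Pearson r 0.92, Spearman rho 0.92), Fpr2 (0.90 and 0.86), Camp (0.90 and 0.61), Ifitm1 (0.85 and 0.82) and Csf3r (0.81 and 0.87). Without the 2 samples furthest from the median of S100a8, r was 0.88 for Cxcr2, 0.74 for Fpr2 and 0.65 for Camp. Cxcr2 gave 0.88 within the first cartridge and 0.95 within the second, and Camp 0.45 and 0.96. The lowest r were those of Itgb3 (−0.75), Psmd7 (−0.68), St6gal1 (−0.61), Ecsit (−0.59) and Cd276 (−0.59), and that of Ecsit became 0.13 without those 2 samples.

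Of the 601 genes including S100a8, 431 had an entry by symbol among the RefSeq promoter sequences of GRCm38.p6. The promoters of S100a8 and of the 3 genes with the highest Pearson r to it over the 24 samples are shown for that reason. Each is the 250 bases before the start of the gene, in the direction of transcription, at chr3:90668821-90669070 (plus strand) for S100a8, chr1:74153744-74153993 (plus) for Cxcr2, chr17:17887574-17887823 (plus) for Fpr2 and chr9:109849457-109849706 (minus) for Camp. Capitals mark 2 motifs read on both strands, GAGGAA, the core bound by PU.1, and TTNCNNAA, a pattern found in C/EBP sites, both factors of the neutrophil and monocyte lineages.
S100a8: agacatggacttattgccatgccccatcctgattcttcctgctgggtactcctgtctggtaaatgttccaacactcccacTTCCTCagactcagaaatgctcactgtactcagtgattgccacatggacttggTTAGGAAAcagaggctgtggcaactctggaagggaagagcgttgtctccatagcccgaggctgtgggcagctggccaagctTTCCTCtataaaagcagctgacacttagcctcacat
Cxcr2: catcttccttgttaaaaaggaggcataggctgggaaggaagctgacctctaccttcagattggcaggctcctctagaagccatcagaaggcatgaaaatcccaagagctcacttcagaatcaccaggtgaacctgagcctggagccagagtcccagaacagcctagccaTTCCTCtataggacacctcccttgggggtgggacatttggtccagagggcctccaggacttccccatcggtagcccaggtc
Fpr2: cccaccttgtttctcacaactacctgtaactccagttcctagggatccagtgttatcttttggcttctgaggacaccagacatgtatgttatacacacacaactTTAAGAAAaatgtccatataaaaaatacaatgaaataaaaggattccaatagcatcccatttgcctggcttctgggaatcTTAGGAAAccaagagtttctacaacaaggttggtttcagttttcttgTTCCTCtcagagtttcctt
Camp: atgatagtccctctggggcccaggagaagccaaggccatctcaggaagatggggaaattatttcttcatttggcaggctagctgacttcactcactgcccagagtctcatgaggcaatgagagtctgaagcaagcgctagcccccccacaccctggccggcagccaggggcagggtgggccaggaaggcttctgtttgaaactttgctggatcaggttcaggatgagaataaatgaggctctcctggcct

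GAGGAA occurred 2 times before S100a8, 1 time before Cxcr2, 1 time before Fpr2 and 0 times before Camp, and 23.3% of all 32851 such windows hold it. TTNCNNAA occurred 1 time before S100a8, 2 times before Fpr2 and 0 times before Cxcr2 and Camp, beside 36.8% of all windows. The marked letters are matches of sequence only, and 6 other spellings of such motifs were also searched (TTGCNNCA, TTGCGCAA, TTTCNNAA, ATTGCNNAA, GGAAGT and TTGNNNAA).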

How the data were processed

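The authors deposited 1 table of normalized nCounter signal for 24 samples; the file headers record 2 cartridges with 12 samples on each, and the submitters' processing notes name limma without its role. The geometric mean of the housekeeping genes was 346.9 throughout, and division by 1 factor per sample gave whole numbers for 100% of values above 1 (tolerance 0.05), so counts were recovered; no subtraction of background was visible, and 82 values stood at exactly 1. The table held 0 columns without a sample. A myeloid panel is named in the label protocol, and the PanCancer Immune panel in the series title and the table.

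Samples were ranked by S100a8. Of 749 other endogenous genes, 600 reached 20 in 4 or more samples and were kept and 149 were left out. Kept values were taken as log2(value + 1). The split carries no test. Slopes came from limma 3.58.1 (lmFit, eBayes with trend, R 4.3.3) with 7 arms as a factor, Benjamini-Hochberg over 600 genes, tested on simulated data first. The recovered counts entered edgeR 4.0.16 and DESeq2 1.42.0 as alternatives. The closing section gives the effect of these and of other scalings, filters, covariates and left-out samples.

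Named genes were the 10 largest differences without overlap in each direction (filled up to 5), the genes called in the slope fit or the 5 of smallest p, the 5 highest and lowest correlations, the neutrophil list, up to 4 members of each other list by slope p, and Erbb2, Epcam, Cd3e, Arg1, Arg2, Nos2, Cd274, Il1b, Cxcr2, Csf3r and Itgam; Mpo, Elane, the CXCR2 ligands, Cd8a, Cd28, Nlrp3, Syk, Il10ra, Ccrl2 and Mefv, and the genes that make up counts of 5 or fewer, were added after their values were seen. The counts include 1 gene not reported here by name. The members and lists were chosen with earlier results of these data known.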

Additional observations from a re-analysis of the deposited data

Results flagged for a closer look

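Within arms of 4 samples, 30 named genes were checked for a sample far from the other 3 of its arm (gap over range, Dixon's critical value). Of 150 sets, 15 (10%) were past it. The genes were S100a8 itself, neutrophil genes and genes picked for going with S100a8. The sets are therefore neither independent nor unselected, and the 10% cannot be set against a rate expected by chance. In ENT+PD1+CTLA4, replicate 1 was the far sample, on the high side, for S100a8 (0.877), Camp (0.986), Ltb (0.977), Cyfip2 (0.941), Ccl5 (0.927), Map4k2 (0.925), Klra17 (0.902) and Selplg (0.863), and replicate 2 on the low side for Cybb (0.848). In ENT+CTLA4, replicate 6 was far above the others for Ccl5 (0.833), and replicate 1 for Ceacam1 (0.840). In ENT, replicate 4 was the high sample for S100a8 (0.849). In vehicle, replicate 3 was high for Fpr2 (0.930) and replicate 5 for Klra17 (0.885), and replicate 2 was low for Ceacam1 (0.883). Arms of 2 samples could not be checked this way, which leaves out the sample with the highest S100a8.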

How the results depend on the processing

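The 9 genes that go with S100a8 within arms kept a positive slope under every alternative run, but their number moved: 29 in edgeR's quasi-likelihood fit on the deposited scaling, 24 with TMM (21 positive, 3 negative: Csf3, Dmbt1 and Rela), 41 in DESeq2 (34 positive, 7 negative), 4 after median rescaling, 5 after quantile normalization (3 of them among the 9, and Csf3 negative), 17 with no filter on low values, 109 with cartridge in place of arm (3 negative), 71 with no covariate (8 negative), 0 on the first cartridge alone, 1 on the second alone, and 47 without both ENT+CTLA4+HER2 samples. Leaving out 1 sample at a time gave 3 to 47, the lowest without ENT+PD1+CTLA4 replicate 1 and the highest without either ENT+CTLA4+HER2 sample, which removes that arm from the slope. Arm with a replicate block gave 6, all among the 9, with Chil3, Klra17 and Map4k2 lost. Whether the replicate numbers pair the samples was not settled. As deviations from arm means, 52 same-numbered pairs across arms had a median correlation of −0.02 (from −0.45 to 0.63), and 17 exceeded 0.1. Pairs of unlike number were not set beside them. The slope difference between cartridges stayed at 0 genes throughout, also when leaving out 1 sample (0 to 0). Negative slopes that did not pass changed sign for Csf3 (0.0757 with cartridge in place of arm, 0.0512 with no covariate), Lif (0.0460 and 0.0850), Itga6 (0.0211 with no covariate) and Ecsit (0.50 on the first cartridge). In the S100a8-high and S100a8-low comparison, the genes higher without overlap numbered 2 after median rescaling with the ranking redone (Cxcr2 and Ifitm1) and 9 after quantile normalization. They numbered 27 for 6 against 6 samples, 0 for 12 against 12, 35 without the repeat-titled pair, 50 on the second cartridge and 0 relative to arm means. Leaving out 1 sample gave 16 to 34, the highest without repeat-titled replicate 2. Taking samples out of either group cannot lower the number. The 16 genes were therefore bound to stay there, in 6 against 6, without the repeat-titled pair and on the second cartridge. Genes lower without overlap numbered 4 after quantile normalization (Cd1d2, F2rl1, Psmd7 and Tfe3), 1 for 6 against 6 and 1 on the second cartridge (Psmd7), 2 without both ENT+CTLA4+HER2 samples (Anxa1 and Tnfrsf12a), and 0 to 2 when leaving out 1 sample. The median over all genes was −0.11 after median rescaling with the ranking redone (−0.15 with the same samples) and −0.11 after quantile normalization, 0.34 on the second cartridge, and 0.08 to 0.17 when leaving out 1 sample. The comparison on the first cartridge alone could not be made, as no S100a8-high sample ran there. Genes near the negative controls, such as Camp and Ccl5 in S100a8-low samples, have no measured size of change. The causes of these shifts were not tested.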
